A study of Mus musculus with 7 samples.

Results

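The genes described here are 9 components and regulators of the complement system other than the C1q chains: C1ra, C2, C4b, C3, Cfb, Serping1, Clu, Cd55 and Cd59a. They were chosen by symbol, and each of the 9 is among the 35976 genes of the deposited count table. Of these, 8 had enough counts to be tested between the guides, and C1ra did not. Mice of the sgEgfr group received adeno-associated virus carrying Cas9 and a guide RNA against Egfr, which encodes a receptor of epidermal growth factor (3 libraries). Mice of the sgRosa group received the same kind of virus with a guide against the Rosa26 locus, the control (4 libraries). Mice of both groups were male C57BL/6J, of an age that the labels leave out. Cas9 was driven by GfaABC1D, a short GFAP promoter used to target astrocytes, and the virus went into the amygdala and was left for more than 2 weeks. Both groups were then held in restraint tubes over 7 days, fear-conditioned on 1 day and given extinction sessions on 3 days, so no unstressed or uninjected animals enter the comparison. Astrocytes were enriched from the papain-digested amygdala on magnetic beads that bind the astrocyte antigen ACSA-2, and 5 ng of total RNA entered each library.

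Complement is a cascade of plasma and tissue proteins that marks targets for removal. In the classical pathway the proteases C1r and C1s are bound to C1q, and C1s cleaves C4 and C2, which then form the enzyme that cleaves C3. Factor B takes the place of C2 in the alternative pathway, and C1 inhibitor, clusterin, CD55 and CD59 hold the cascade back at different steps. In the brain, astrocytes and microglia make many of these proteins, and C3 and C4 fragments on synapses are known to promote their engulfment by microglia.

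The libraries held 5852870 to 22579222 counts. sgRosa 3 differed from sgRosa 4 by little more than sampling noise (chi-square of 1.04 per degree of freedom, against 14.8 to 158 in the 20 other pairs of libraries), and they were summed to 1 sample, sgRosa 3+4, leaving 3 samples per group. Whether every library is a different animal is not stated, so the p-values measure the spread of these samples, which may be technical. Levels are given in CPM, counts divided by the library total in units of 1e+06, scaled with TMM. Egfr, the targeted gene, had 10.7, 5.69 and 8.04 CPM across sgEgfr 1 to 3, against 13.3, 2.87 and 10.6 CPM in sgRosa 1, 2 and 3+4 (log2 fold change -0.13, SE 0.54, edgeR adjusted p = 0.997). Cas9 cuts need not lower an mRNA, so this level does not test the labels. The astrocyte label was checked against 12 markers, each detected in every sample, which summed to 7656 to 9119 CPM in sgEgfr and 3997 to 10790 CPM in sgRosa. The samples also carried RNA of other cells: 10 oligodendrocyte markers summed to 78233 to 157659 CPM in sgEgfr and 69487 to 99428 CPM in sgRosa, and 12 microglia markers to 172 to 406 CPM and 131 to 250 CPM in the same order. Such sums are not scaled for gene length. A lower level in these bulk samples could mean fewer cells of a type or less RNA per cell, which cannot be told apart.

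Levels of the 9 genes spanned more than 3 orders of magnitude. Per kilobase of exon, with lengths taken from the GENCODE M21 annotation, Clu was far above the rest at 439 ± 188 CPM per kilobase (SD over the 6 samples, as for the values that follow). Cd59a followed at 16.1 ± 5.76, C4b at 5.96 ± 1.66, Serping1 at 3.40 ± 1.17, C2 at 1.54 ± 1.28, Cd55 at 0.816 ± 1.39, Cfb at 0.546 ± 0.196, C3 at 0.369 ± 0.585 and C1ra at 0.0965 ± 0.0699 CPM per kilobase. The ranges of Clu and Cd59a did not overlap, nor did those of Cd59a and C4b. From C4b downward, each gene's range over the samples overlapped that of the next in this order. C4b, with a lowest value of 4.43, overlapped Serping1 (highest 5.63) but not C2 (highest 3.31) or Cd55 (highest 3.63). These ranges do not compare genes within a sample, although all were measured in the same 6 samples, so they alone do not settle the order of neighbours.

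**Figure D1:**
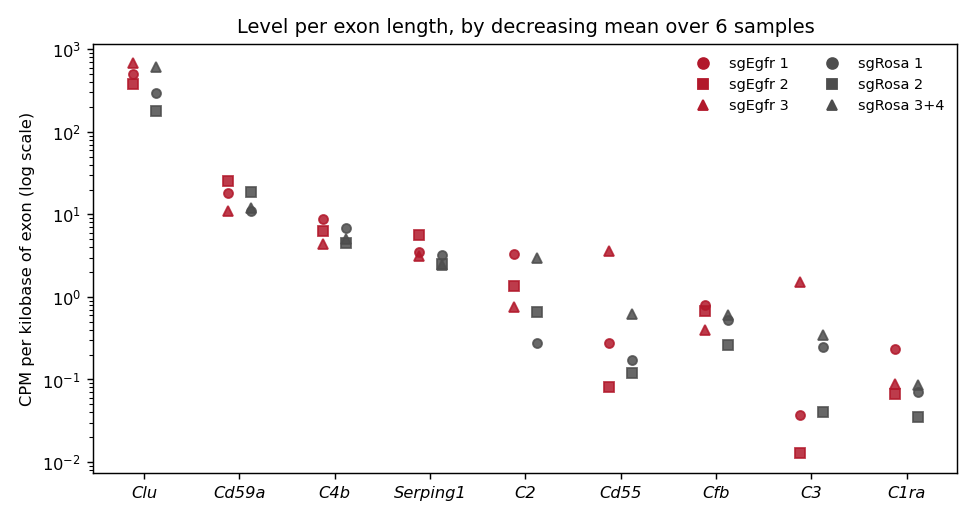
Level of each complement gene per kilobase of exon (CPM per kilobase, log axis) in the 3 sgEgfr samples (red, left of each pair) and the 3 sgRosa samples (grey), ordered by the mean over the 6 samples. Clu stands highest at 179 to 672 CPM per kilobase, and Cd55, C3 and C2 are spread most widely between samples.

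Between the guides, 0 of the 8 tested genes were called by edgeR at an adjusted p under 0.05, as was the case for 0% of the 14936 genes tested. At an unadjusted p under 0.05 there were 0 of 8 members, against 2.68% of genes (1.31% higher and 1.37% lower in sgEgfr). DESeq2, limma-voom and limma-voom with quality weights also called 0 members, and at an unadjusted p under 0.05 DESeq2 had 1, Cd55, while both forms of limma-voom had 0. With libraries left out, edgeR had 1 such member without sgEgfr 3 (C3, lower), 2 without sgRosa 3 and 4 (C2 and Clu, higher) and 2 without sgRosa 2 and sgEgfr 3 (C3, lower, and Cd59a, higher), and called 0 in each. The log2 fold change was above 0 for 8 of 8 members, with a median of 0.50, where 52.9% of genes tested were above 0 with a median of 0.02. These 8 values are not independent, since they come from the same 6 samples. No member had CPM ranges that separated the groups (background 3.76% of genes separated with sgEgfr higher and 3.85% with sgEgfr lower). Leaving out sgEgfr 1 or sgEgfr 3 left 6 of 8 above 0, and leaving out both sgRosa 2 and sgEgfr 3 left 5 of 8.

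**Figure D2:**
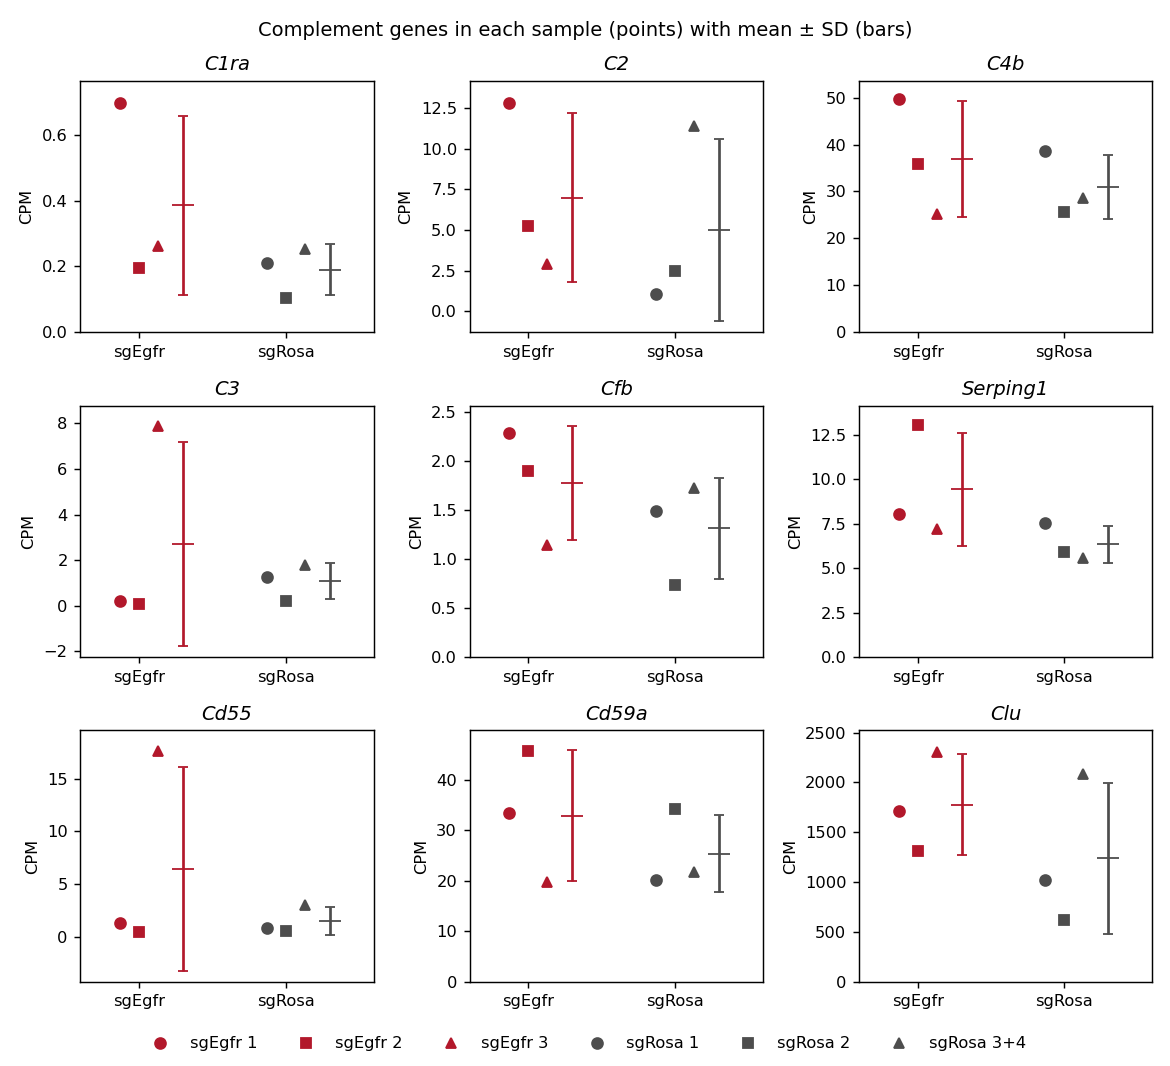
CPM of the 9 complement genes in the sgEgfr samples (red, left) and the sgRosa samples (grey, right), with the mean and SD of each group beside its points, each panel on its own linear axis. The groups overlap in each panel, and C3 and Cd55 have 1 sample, sgEgfr 3, far above the other 5.

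Of the proteases and substrates that start the classical pathway, C4b was the one with a steady level, C2 varied between samples and C1ra was barely detected. C1ra, the protease C1r, lies on chromosome 6 from 124512405 to 124523443 (GRCm38, the build of mm10, GENCODE M21, as for the positions below). It had 11, 3 and 6 counts in sgEgfr 1 to 3, against 3, 2, 3 and 1 counts in sgRosa 1 to 4. With 29 counts in all it did not pass the filter on low counts, and its difference was not tested.

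C2, the protease that joins C4b in the classical C3-cleaving enzyme, lies on chromosome 17 from 34862604 to 34898265. It had 12.8, 5.24 and 2.89 CPM across sgEgfr 1 to 3, against 1.06, 2.51 and 11.4 CPM in sgRosa 1, 2 and 3+4. One sample of each group, sgEgfr 1 and sgRosa 3+4, was high, and the groups overlapped. On the log2 scale it differed by 0.48 (SE 0.88, with 95% confidence limits of -1.58 and 2.54, edgeR adjusted p = 0.997). Without sgEgfr 1 it was -0.30, without sgRosa 2 it was 0.16, without sgRosa 1 it was 0.0078, without sgEgfr 3 it was 0.85, and without sgRosa 3 and 4 it was 1.95 (unadjusted p = 0.0397, edgeR adjusted p = 0.738). Beside it, 10 markers of blood and border immune cells summed to 605, 60.1 and 18.8 CPM in sgEgfr 1 to 3, against 18.98, 212 and 474 CPM in sgRosa 1, 2 and 3+4. Most of the highest sums came from the haemoglobin genes, with Hba-a1 at 202 and Hbb-bs at 366 CPM in sgEgfr 1, and at 163 and 298 CPM in sgRosa 3+4. The macrophage gene Lyz2 had 19.6, 7.72 and 4.77 CPM in sgEgfr 1 to 3, against 9.81, 16.8 and 5.47 CPM in sgRosa 1, 2 and 3+4. S100a8 and S100a9 had 4.57 and 2.28 CPM in sgEgfr 1, and 0.0636 and 0 CPM in sgRosa 3+4. These genes were thus highest in sgEgfr 1 and not raised in sgRosa 3+4. Mrc1 and Pf4 were highest in sgRosa 2, and Cd163 in sgEgfr 2. Cd3e and Cd79a had 14 and 6 counts in all. What part blood or these cells have in the C2 value was not tested.

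C4b, a mouse gene of complement C4, lies on chromosome 17 from 34728380 to 34743882. It had 49.7, 35.8 and 25.2 CPM across sgEgfr 1 to 3, against 38.7, 25.6 and 28.6 CPM in sgRosa 1, 2 and 3+4. The 6 values lay within a 1.97-fold range, with the highest and the lowest both in sgEgfr. Its fitted log2 fold change was 0.25 (SE 0.28, with 95% confidence limits of -0.39 and 0.90, edgeR adjusted p = 0.997), and -0.02 without sgEgfr 1, 0.13 without sgRosa 2, 0.45 without sgRosa 1 and 0.47 without sgEgfr 3.

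C4b and C1ra have near-identical neighbours in the mouse genome. Of the 50-base windows of C4b transcripts in GENCODE M21, 34.6% also occur in transcripts of C4a, and 48.0% of those of C1ra occur in C1rb. The table held 3395 counts for C4b and 9 for C4a, and 29 for C1ra and 0 for C1rb. The sources used here do not give how reads matching both copies were counted, and the level of C4b and that of C1ra may miss or include such reads. C2 and Cfb lie next to each other, and GENCODE M21 lists a gene, Gm20547, that overlaps both, so their counts depend likewise on the annotation used.

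C3, the central component that each pathway cleaves, and Cd55, decay-accelerating factor, which takes the C3-cleaving enzymes apart on the cell surface, both had their highest level in the library sgEgfr 3. C3 lies on chromosome 17 from 57203970 to 57228136, and Cd55 on chromosome 1 from 130439027 to 130462744. The 250 bases before the RefSeq start of each are shown because both genes peaked in that library (GRCm38.p6, minus strand, chr17:57228137-57228386 for C3 and chr1:130462745-130462994 for Cd55). Capitals mark matches to any of 8 motifs searched on both strands: STAT (TTCNNNGAA), interferon response element (GAAA, any 2 bases, GAAA), NF-kB (GGGA, any 2 bases, TTCC), the RFX X-box by its consensus, FOXJ1 core (GTAAACA), C/EBP (TTNNGNAAT), TATA box (TATAAA) and GC box (GGGCGG).
C3: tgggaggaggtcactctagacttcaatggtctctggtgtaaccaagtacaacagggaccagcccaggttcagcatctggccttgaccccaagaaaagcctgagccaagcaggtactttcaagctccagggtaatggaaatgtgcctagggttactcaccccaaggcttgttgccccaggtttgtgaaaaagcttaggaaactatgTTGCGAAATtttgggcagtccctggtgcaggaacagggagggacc
Cd55: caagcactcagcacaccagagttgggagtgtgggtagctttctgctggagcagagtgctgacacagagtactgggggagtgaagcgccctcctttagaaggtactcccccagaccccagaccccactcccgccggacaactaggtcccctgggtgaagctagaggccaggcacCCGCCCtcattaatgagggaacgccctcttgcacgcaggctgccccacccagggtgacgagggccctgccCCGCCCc
The C3 window held 1 match, a C/EBP motif that begins 45 bases before the start, and C/EBP matches occur in 10.2% of the 32851 windows of the same length. The Cd55 window held 2 GC boxes, a motif found in 32.7% of windows. Neither held the RFX or FOXJ1 letters, which 1.29% and 3.17% of windows hold. RefSeq promoter windows were at hand for 4 of the 9 genes, also C1ra with 2 C/EBP matches and Cd59a with 1 interferon response element (a motif in 2.98% of windows).

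C3 had 3, 1 and 180 counts in sgEgfr 1 to 3, against 18, 4, 17 and 11 counts in sgRosa 1 to 4. As CPM it was at 0.190, 0.0655 and 7.87 in sgEgfr 1 to 3, and at 1.27, 0.209 and 1.78 in sgRosa 1, 2 and 3+4. Thus sgEgfr 3 held 69.1% of the C3 signal summed over the 6 samples, and the other sgEgfr samples were the lowest of the 6. The guides differed in it by a log2 fold change of 1.35 (SE 1.47, with 95% confidence limits of -2.09 and 4.78, edgeR adjusted p = 0.997). Without sgEgfr 3 it was -3.00 (unadjusted p = 0.0328, edgeR adjusted p = 0.999), without sgRosa 2 it was 0.83, with limma-voom -0.16, and with limma-voom and quality weights -1.49.

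Cd55 had 1.33, 0.393 and 17.6 CPM across sgEgfr 1 to 3, against 0.847, 0.575 and 2.99 CPM in sgRosa 1, 2 and 3+4. Again sgEgfr 3 was highest, with 74.2% of the summed signal, and sgRosa 3+4 came next. Between the guides its log2 fold change came to 2.14 (SE 1.30, with 95% confidence limits of -0.89 and 5.17, edgeR adjusted p = 0.997), and -0.76 without sgEgfr 3 (adjusted p = 0.999). DESeq2 gave 2.15 (unadjusted p = 0.0469, adjusted p = 0.999). Its near copy Cd55b had 0 counts, and 384 of the 4801 windows of 50 bases in Cd55 occur in it.

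Markers of ependymal cells, the ciliated cells that line the ventricles, stood highest in the same library. The 6 markers summed to 80.7, 42.0 and 921 CPM in sgEgfr 1 to 3, against 64.4, 51.6 and 350 CPM in sgRosa 1, 2 and 3+4. Foxj1, the transcription factor of motile cilia, had 38.3, 25.7 and 296 CPM across sgEgfr 1 to 3, against 35.4, 42.6 and 128 CPM in sgRosa 1, 2 and 3+4. Tmem212 was at 0 in 1 sample, sgRosa 2, and the other 5 markers were detected in every sample. All 6 had positive log2 fold changes, with a median of 1.27, and 0 were called. The 6 choroid plexus markers summed to 41.4, 12.04 and 69.5 CPM in sgEgfr 1 to 3, against 62.0, 9.93 and 49.7 CPM in sgRosa 1, 2 and 3+4, with Folr1, Kl and Aqp1 at 0 in some samples. These markers differed in pattern. Ttr had 46.2 CPM in sgRosa 1 and 0.612 CPM in sgEgfr 3. Folr1 was highest in sgEgfr 3 (17.9 CPM) and next in sgRosa 3+4 (6.80 CPM). Otx2 and Aqp1 were also highest in sgEgfr 3, Clic6 in sgEgfr 1 and Kl in sgEgfr 2. What part ependymal or choroid plexus cells have in the C3 and Cd55 values was not tested.

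To set each gene beside the cell types, its log2 CPM was centred on its mean over the 6 samples and compared with the centred mean of each of 11 marker lists. The root-mean-square (RMS) difference over the 6 samples is given as a description, and smaller means more alike. Of the 11 lists, the ependymal one came closest to C3 (RMS difference 1.02 in log2 units, where C3 itself varied by 1.88 about its mean) and to Cd55 (0.80 against 1.71). The astrocyte list came closest to Clu (0.36 against 0.65) and to Cfb (0.26 against 0.49). Cd59a was closest to the oligodendrocyte list (0.15 against 0.46), C2 to blood and border immune cells (0.85 against 1.22), Serping1 to neurons (0.24 against 0.39) and C4b to fibroblasts (0.29 against 0.35). For C4b the difference was nearly as large as its own variation. With 6 samples that share their libraries and scaling, such likeness does not locate a transcript in a cell.

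**Figure D3:**
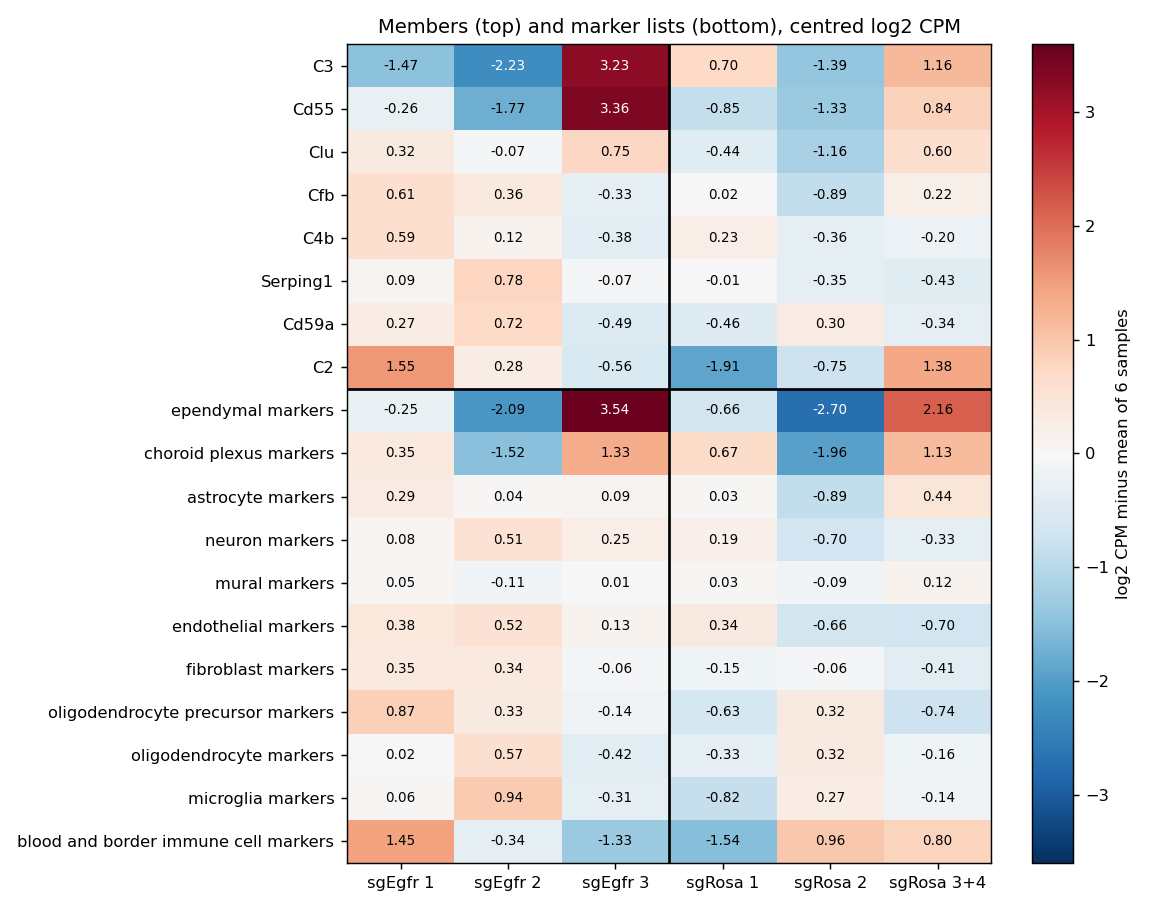
Log2 CPM minus the mean of the 6 samples, for the 8 tested complement genes (above the line) and for the mean of each cell type marker list (below it), with sgEgfr samples in the left columns and sgRosa samples in the right ones. C3 (3.23), Cd55 (3.36) and the ependymal markers (3.54) share their highest value in sgEgfr 3, while C2 is high in sgEgfr 1 and sgRosa 3+4.

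The single genes most like C3 by this measure, out of 14935, were Saxo2 (RMS difference 0.30), Serpinb1b (0.39) and Ccdc162 (0.42). Saxo2, a protein of ciliary microtubules, had 2.09, 1.24 and 54.3 CPM across sgEgfr 1 to 3, against 6.49, 2.82 and 15.96 CPM in sgRosa 1, 2 and 3+4. Those most like Cd55 were Pamr1 (0.25), Rfx2 (0.29), a transcription factor of cilium genes, and Emb (0.32). C3 and Cd55 differed from each other by 0.84, and C3 from the other 6 tested members by 1.62 to 2.48.

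Cfb, factor B, the protease of the alternative pathway, was at low levels that overlapped between the groups. It lies on chromosome 17 from 34856374 to 34862518. It had 2.28, 1.90 and 1.14 CPM across sgEgfr 1 to 3, against 1.48, 0.732 and 1.72 CPM in sgRosa 1, 2 and 3+4. On the log2 scale it differed by 0.43 (SE 0.49, with 95% confidence limits of -0.72 and 1.59, edgeR adjusted p = 0.997), and by 0.14 without sgRosa 2, its lowest sample, 0.21 without sgEgfr 1 and 0.68 without sgEgfr 3. The genes most like it were Gpc5 (RMS difference 0.15), Rab13 (0.15) and Stmn3 (0.16).

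The soluble regulators Clu and Serping1 had log2 fold changes near 0.5 without a call. Clu, which encodes the secreted chaperone clusterin, an inhibitor of the terminal complex and an abundant astrocyte product, lies on chromosome 14 from 65968483 to 65981547. It had 1716, 1307 and 2311 CPM across sgEgfr 1 to 3, against 1016, 615 and 2083 CPM in sgRosa 1, 2 and 3+4. The 2 samples at the top, sgEgfr 3 and sgRosa 3+4, came from different groups. They were also the 2 highest for ependymal markers (921 and 350 CPM). Clu was lowest in sgRosa 2, which also had the lowest sum of astrocyte markers (3997 CPM). The next lowest, sgRosa 1, had an astrocyte sum of 9998 CPM, above the 8724 CPM of sgEgfr 3. This order was not kept by the centred log2 mean of the 12 astrocyte markers, which weights each marker alike. By that mean sgRosa 2 was again lowest (-0.895) and sgRosa 1 next (0.029). Close above it were sgEgfr 2 (0.044) and sgEgfr 3 (0.088). What part either cell type has in the Clu value was not tested. The fitted log2 fold change of Clu was 0.52 (SE 0.45, with 95% confidence limits of -0.54 and 1.58, edgeR adjusted p = 0.997). It was 0.20 without sgRosa 2, -0.04 without sgRosa 2 and sgEgfr 3, and 1.13 without sgRosa 3 and 4 (unadjusted p = 0.0219, edgeR adjusted p = 0.738). The 3 genes most like Clu were Dzip1l (RMS difference 0.09), Pde9a (0.11) and Alpk3 (0.11).

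Serping1, C1 inhibitor, which inactivates C1r and C1s, lies on chromosome 2 from 84765387 to 84775444 and is often used as a marker of reactive astrocytes. It had 8.05, 13.1 and 7.21 CPM across sgEgfr 1 to 3, against 7.55, 5.91 and 5.60 CPM in sgRosa 1, 2 and 3+4. The highest value was in sgEgfr 2, and sgEgfr 3 lay below sgRosa 1, so the groups overlapped. The guides differed in it by a log2 fold change of 0.57 (SE 0.32, with 95% confidence limits of -0.18 and 1.33), with the smallest unadjusted p of the members (0.117, edgeR adjusted p = 0.997). It was 0.25 without sgEgfr 2. Beside it, 9 endothelial markers summed to 69.8, 77.4 and 56.1 CPM in sgEgfr 1 to 3, against 60.3, 36.8 and 34.4 CPM in sgRosa 1, 2 and 3+4. Of these, 8 of the 9 had positive log2 fold changes and 0 were called. At an unadjusted edgeR p under 0.05, 3 were higher, as were 1.31% of all genes tested. By RMS difference the neuron (0.24) and fibroblast (0.25) lists were closer to Serping1 than the endothelial one (0.28). What part any of these cells have in the Serping1 value was not tested.

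Cd59a, the membrane protein that stops the pore of the terminal pathway from forming, lies on chromosome 2 from 104095801 to 104115354. It had 33.3, 45.8 and 19.6 CPM across sgEgfr 1 to 3, against 20.1, 34.1 and 21.7 CPM in sgRosa 1, 2 and 3+4. Its highest sample, sgEgfr 2, also had the highest sums of oligodendrocyte (157659 CPM) and microglia markers (406 CPM), and sgRosa 2 was the highest of its group for Cd59a. Between the guides its log2 fold change came to 0.37 (SE 0.34, with 95% confidence limits of -0.41 and 1.16, edgeR adjusted p = 0.997), and 0.04 without sgEgfr 2. It was 0.65 without sgRosa 2, 0.64 without sgEgfr 3, and 0.92 without both of these (unadjusted p = 0.00324, edgeR adjusted p = 0.387). Its near copy Cd59b had 151 counts against 2953 for Cd59a over the 7 libraries, and 3.87% of the 50-base windows of Cd59a occur in Cd59b. Cd59b had 0.761, 1.44 and 2.80 CPM across sgEgfr 1 to 3, against 0.212, 1.78 and 1.02 CPM in sgRosa 1, 2 and 3+4, a different pattern from that of Cd59a.

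**Figure D4:**
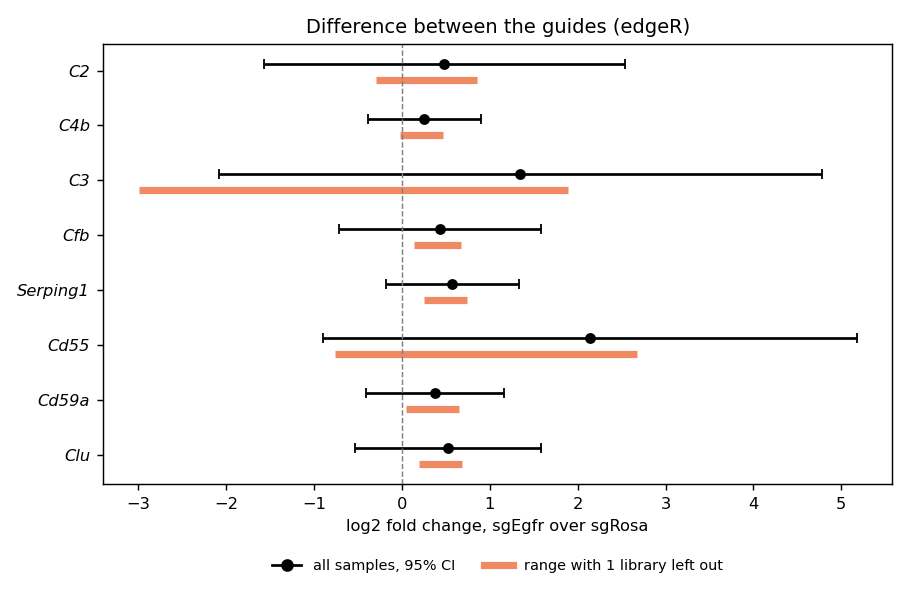
Log2 fold change of the 8 tested complement genes, sgEgfr over sgRosa, with the edgeR 95% confidence interval (black) and the range of values when 1 library is left out (orange). Each confidence interval spans 0, and the ranges of C3 (-3.00 to 1.89), Cd55 (-0.76 to 2.67), C2 (-0.30 to 0.85) and C4b (-0.02 to 0.47) cross it as well.

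The rest of the pathway was read from a list of 55 further complement genes, of which 31 were tested. Of these, 24 had positive and 7 negative log2 fold changes (median 0.08). Of all genes tested, 52.9% were positive, with a median of 0.02. At an adjusted p under 0.05, edgeR called 0 of them, and at an unadjusted p under 0.05 it had 1, Csmd1, a membrane regulator of neurons that was named after its values were seen. That is 1 of 31, where 2.68% of all genes tested had such a p. Csmd1 had 4.88, 2.42 and 3.76 CPM across sgEgfr 1 to 3, against 0.282, 1.72 and 1.46 CPM in sgRosa 1, 2 and 3+4. Its groups did not overlap, as for the 3.76% of genes separated with sgEgfr higher (log2 fold change 1.65, edgeR adjusted p = 0.997), and 8 of the 8 tested neuron markers were also positive, with a median of 0.54. By sample, the 9 listed neuron markers summed to 372, 586 and 469 CPM in sgEgfr 1 to 3, against 450, 272 and 323 CPM in sgRosa 1, 2 and 3+4. The neuron sum was thus higher in sgRosa 1, where Csmd1 was lowest, than in sgEgfr 1, where it was highest. The 6 oligodendrocyte precursor markers summed to 1502, 1475 and 969 CPM, against 886, 1362 and 1090 CPM in the same order. What part neurons or these precursors have in the Csmd1 value was not tested.

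Among the genes that start the pathways, 6 of 7 tested were positive, where 52.9% of all genes tested were. The negative one, C1s1, a gene of the protease C1s, was named after its values were seen and had 133 counts in all. It had 0.761, 1.44 and 0.262 CPM in sgEgfr 1 to 3, against 3.03, 1.36 and 1.53 CPM in sgRosa 1, 2 and 3+4. Its log2 fold change was -1.28 (unadjusted p = 0.0961, edgeR adjusted p = 0.997). C1qb and C1qc, microglial chains of C1q, were at 40.2, 78.5 and 23.6 CPM and at 37.5, 61.9 and 27.1 CPM in sgEgfr 1 to 3, against 20.9, 46.0 and 37.6 CPM and 25.3, 46.5 and 33.4 CPM in sgRosa 1, 2 and 3+4. The microglia markers had their highest sum in sgEgfr 2 as well, with 12 of 12 positive and a median of 0.45. Masp1, a protease of the lectin pathway, averaged 17.6 ± 4.03 CPM in sgEgfr and 14.1 ± 0.911 CPM in sgRosa (SD, n = 3 each), and Colec12, a collectin scavenger receptor, 20.3 ± 3.84 CPM and 19.2 ± 4.18 CPM in the same order.

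Of the central and terminal components 1 of 3 tested was positive. Hc, the mouse C5 gene, was highest in the same sample as C3. It had 1.90, 0 and 17.8 CPM across sgEgfr 1 to 3, against 0.706, 0 and 4.64 CPM in sgRosa 1, 2 and 3+4 (log2 fold change 1.89, edgeR adjusted p = 0.997, and -0.89 without sgEgfr 3). Cpn1, a carboxypeptidase subunit that inactivates C3a and C5a, had 0.634, 0 and 16.8 CPM across sgEgfr 1 to 3, against 0.141, 0 and 6.04 CPM in sgRosa 1, 2 and 3+4 (log2 fold change 1.51, edgeR adjusted p = 0.997, and -2.66 without sgEgfr 3). Both were highest in sgEgfr 3 and next in sgRosa 3+4, as were the ependymal markers. Of the genes of the pore, C6, C7, C8b and C9 had 0 counts over the 7 libraries, which allows up to 0.0291 CPM at 3 counts, and C8a had 5 counts. Cfd, factor D, had 0 as well. Cfp, properdin, averaged 1.77 ± 1.19 CPM in sgEgfr and 2.76 ± 0.414 CPM in sgRosa, and C8g 1.65 ± 0.507 CPM and 1.85 ± 0.337 CPM in the same order.

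No other regulator or receptor was called. Of 4 tested soluble regulators 3 were positive, and Vtn, vitronectin, also a pericyte marker, averaged 200.3 ± 51.2 CPM in sgEgfr and 188 ± 23.3 CPM in sgRosa. C1qbp, a mitochondrial protein that binds C1q, averaged 44.8 ± 7.75 CPM in sgEgfr and 44.7 ± 1.15 CPM in sgRosa. Of 10 tested membrane regulators 8 were positive, with Cr1l, the rodent C3 convertase regulator Crry, at 25.1 ± 5.32 CPM in sgEgfr and 22.5 ± 2.30 CPM in sgRosa. Sez6l2, Csmd3 and Susd4 are membrane proteins with complement control domains. Sez6l2 averaged 695 ± 12.7 CPM in sgEgfr and 730.3 ± 309.9 CPM in sgRosa, Csmd3 22.1 ± 4.86 CPM and 21.4 ± 9.16 CPM, and Susd4 21.3 ± 4.47 CPM and 21.4 ± 6.99 CPM in the same order. Of 7 tested receptors 6 were positive. Lrp1 averaged 259 ± 16.3 CPM in sgEgfr and 251 ± 113 CPM in sgRosa, and the integrin chain Itgb2 5.60 ± 1.63 CPM and 3.48 ± 2.197 CPM in the same order. C3ar1, the C3a receptor of microglia, averaged 4.03 ± 2.28 CPM in sgEgfr and 3.85 ± 2.37 CPM in sgRosa, and Cd93 3.86 ± 0.699 CPM and 3.63 ± 3.40 CPM in the same order.

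Signals known to induce complement genes in glia and other cells, such as interferon gamma, interleukin 6 family and NF-kB signalling, were read from 16 genes, 9 with positive and 7 with negative log2 fold changes (median 0.13). edgeR called 0 of them, and 1, Socs3, the feedback inhibitor of STAT3, had an unadjusted p under 0.05. That is 1 of 16, where 2.68% of all genes tested had such a p. Socs3 had 59.0, 30.4 and 111 CPM across sgEgfr 1 to 3, against 26.3, 34.3 and 20.9 CPM in sgRosa 1, 2 and 3+4 (log2 fold change 1.30, unadjusted p = 0.0195, edgeR adjusted p = 0.997, and 0.72 without sgEgfr 3). Stat3 averaged 136 ± 11.0 CPM in sgEgfr and 143 ± 16.9 CPM in sgRosa, and Il6st, the signalling chain shared by receptors of the interleukin 6 family, 99.2 ± 15.4 CPM and 113 ± 24.6 CPM in the same order. The NF-kB inhibitor Nfkbia averaged 143 ± 39.2 CPM in sgEgfr and 80.1 ± 41.5 CPM in sgRosa, and the NF-kB subunit Rela 66.8 ± 8.64 CPM and 72.0 ± 9.87 CPM in the same order. Ifngr1, a chain of the interferon gamma receptor, averaged 28.4 ± 3.14 CPM in sgEgfr and 25.5 ± 4.07 CPM in sgRosa.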

How the data were processed

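The authors deposited raw read counts per gene, not normalised, for 7 libraries. Per the submitters' processing notes, which give no roles or settings, edgeR 3.42.4, featureCounts 2.0.1, MultiQC 1.11, FastQC 0.11.9, fastp 0.23.2 and STAR 2.7.5c were used with mm10. Each of the 7 single-library tables was identical to its column of the series table, and sgRosa 3 and 4 were summed. Members, lists and tests were chosen with earlier results of these data known.

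Genes were kept with filterByExpr (minimum count 10, total 15), scaled with TMM, then tested by the quasi-likelihood test of edgeR 4.0.16 (R 4.3.3; glmQLFit, glmQLFTest), 3 samples against 3, fitting guide alone, with Benjamini-Hochberg adjustment over 14936 genes. The common coefficient of variation was 0.386. Profiles used log2 CPM with a prior count of 2. DESeq2 1.42.0 and limma 3.58.1 were alternatives, beside other scalings, filters and libraries left out. The script was tested on simulated counts. Intervals and zero limits cover counting error or sample spread only. Exon lengths and 50-base windows came from GENCODE M21 and promoters from RefSeq (GRCm38.p6). Named were the members, their near copies, up to 4 complement genes per role and 6 inducing genes by mean CPM, and the 3 genes most like each member. One gene that this rule names is not reported here.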

Additional observations from a re-analysis of the deposited data

How the results depend on the processing

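No gene was called in any setting, where leaving out 1 library gave 0 to 0 calls, and 401 genes had an unadjusted p under 0.05. The count of members with a positive log2 fold change was 6 to 8 with 1 library left out, 7 with limma-voom, with quality weights and with the replicate block, and 5 without sgRosa 2 and sgEgfr 3, a setting chosen after seeing the data. That setting gave log2 fold changes opposite in sign to those with all samples for C3 (-3.49), Cd55 (-1.15), Clu (-0.037), Hc (-1.48) and Cpn1 (-3.25). Without sgEgfr 3, C3 (-3.00), Cd55 (-0.76), Hc (-0.89) and Cpn1 (-2.66) turned, and without sgEgfr 1, C4b (-0.022) and C2 (-0.30). C3 was also negative with limma-voom (-0.16), quality weights (-1.49) and the replicate block (-0.12). Egfr was positive without sgRosa 3 and 4 (0.019), with limma-voom (0.18), with the block (0.060), without sgRosa 1 (0.27) and without sgEgfr 2 (0.056). The cause was not tested. With 1 library left out, the ranges were -3.00 to 1.89 for C3, -0.76 to 2.67 for Cd55, -0.30 to 0.85 for C2, -0.022 to 0.47 for C4b, -0.89 to 2.45 for Hc, -2.66 to 2.065 for Cpn1 and -0.55 to 0.27 for Egfr. Between the groups, samples with the same replicate number had correlations of deviations from the group means of -0.106, 0.517 and 0.549. Those with different numbers had -0.583 to 0.255. These values do not settle whether the numbers mark pairs. No label names pairs, so the main fit used none. With the block, edgeR made 0 calls (705 genes had an unadjusted p below 0.05). Clu was among them, with a log2 fold change of 0.66 and an edgeR adjusted p of 0.9535. So were Hc (1.71) and Cpn1 (1.62), at the same adjusted p. Over the settings that leave out no library or more than 1, 144 of 155 values of the 13 genes followed kept their direction without a call and 11 turned. Cpn1 had no value under the stricter filter, and DESeq2 gave it no p. C1ra, C3 and Cfb had few counts, which limits what these libraries can show for them.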

Other observations

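Cebpb, which encodes a transcription factor of the C/EBP family, was singled out after its values were seen, because the C3 window held a C/EBP motif. It had 4.44, 1.37 and 35.3 CPM across sgEgfr 1 to 3, against 10.4, 13.3 and 9.41 CPM in sgRosa 1, 2 and 3+4. The log2 fold change was 0.32 (edgeR adjusted p = 0.997). Its highest and lowest samples were those of C3, where the lowest held 1 C3 count. The next highest for Cebpb, sgRosa 2, had 4 C3 counts. Cebpd, the other C/EBP gene listed, did not share the highest and lowest samples. Whether either gene acts on C3 was not tested. Cebpd had 15.9, 18.5 and 14.03 CPM across sgEgfr 1 to 3, against 10.2, 10.4 and 14.3 CPM in sgRosa 1, 2 and 3+4, and was highest in sgEgfr 2, where C3 was lowest. Il6ra, the interleukin 6 receptor chain, also named after its values were seen, was highest in sgEgfr 3 and next in sgRosa 3+4, at 2.60, 2.03 and 10.7 CPM in sgEgfr 1 to 3, against 2.26, 2.87 and 6.55 CPM in sgRosa 1, 2 and 3+4.

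The genes most like C2 were Pdzph1 (RMS difference 0.19), Apoc1 (0.29), an apolipoprotein, and Ngb (0.31), neuroglobin. Apoc1 had 23.2, 11.2 and 5.60 CPM across sgEgfr 1 to 3, against 3.25, 4.91 and 16.6 CPM in sgRosa 1, 2 and 3+4, so that sgEgfr 1 and sgRosa 3+4 were the highest samples, as for C2. The haemoglobin gene Hbb-bs had 366, 31.2 and 5.47 CPM across sgEgfr 1 to 3, against 1.69, 118 and 298 CPM in sgRosa 1, 2 and 3+4, and thus also had its 2 highest values in these samples.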
